A study of Mus musculus with 47 samples.

Results

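The genes of the IL-12 cytokine family were followed through 12 mouse RNA-seq libraries of macrophages. The family members were the 5 subunit genes Il12a, Il12b, Il23a, Il27 and Ebi3, picked by gene symbol out of 51912 genes listed for bone-marrow-derived macrophages (BMDMs), and out of 12771 to 23772 genes listed for lines labelled Raw264.7, a mouse macrophage cell line. The series holds 47 samples, and the other 35, which are ChIP-seq, ATAC-seq and input samples, were not analysed here. Each condition had 1 library, so no difference below has a replicate check, and the 95% limits given cover counting error only.

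Cytokines of the IL-12 family are secreted as heterodimers, and each chain has a gene of its own. Il12b encodes p40, which pairs with p35 (Il12a) to form IL-12 and with p19 (Il23a) to form IL-23. Il27 encodes p28, which pairs with the chain from Ebi3 to form IL-27, and the Ebi3 chain can also pair with p35 to form IL-35. Macrophages and dendritic cells make IL-12, IL-23 and IL-27 after Toll-like receptor ligands such as LPS. IL-12 acts on T and NK cells to promote interferon-gamma production, IL-23 sustains IL-17-producing T cells, and IL-27 both promotes and restrains T-cell responses.

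The members lie on 5 different chromosomes in GRCm38 (GENCODE M21). Il12a (ENSMUSG00000027776) spans chr3:68690644-68698547 on the + strand, and Il12b (ENSMUSG00000004296) spans chr11:44400063-44414033 on the + strand, each with 8 exons in its longest coding transcript. Il23a (ENSMUSG00000025383) spans chr10:128296139-128298752 on the − strand with 4 exons. Il27 (ENSMUSG00000044701) spans chr7:126589010-126594941 on the − strand, and Ebi3 (ENSMUSG00000003206) spans chr17:55952640-55957022 on the + strand, each with 5 exons. The longest coding transcripts encode 236 residues for Il12a, 335 for Il12b, 196 for Il23a, 234 for Il27 and 228 for Ebi3. No other annotated gene overlaps Il12a, Il12b or Il23a. The strand used in counting is not given in the sources used here, and 103 of the 1021 exon bases of Il27 are shared with Apobr on the other strand. Likewise, 270 of the 1154 exon bases of Ebi3 are shared with Gm16712 on the other strand, so that reads from these stretches cannot be told apart. Apobr counts were 6227 and 4498 in the non-treated (NT) WT and cKO BMDM libraries against 29 and 18 for Il27, and 2051 and 1792 after LPS against 2208 and 1587. Gm16712 had 23 to 92 counts in the 6 BMDM libraries, where Ebi3 had 770 or more. In the p65 lines described below it had 399 reads against 1124 for Ebi3 with WT p65, 429 against 1431 with K122R and 206 against 737 in the p65 KO. In the Zmynd8 lines it had 562 to 731 reads against 5290 or more. Apobr had 6193 and 6246 counts after IL-4 against 17 and 97 for Il27, and 2175 to 2675 reads in the p65 lines against 1911 to 4212.

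The RefSeq promoter table (GRCm38.p6) matched 3 of the 5 members, which were Il12a, Il12b and Ebi3. The 250 bases before the start are shown for Il12b, the member with the largest ratio between genotypes after LPS, and for Ebi3, the most abundant member in BMDMs per length. Capitals mark matches on either strand to 5 motifs, which were those of NF-κB, AP-1, C/EBP, IRF and the TATA box. The Il12b window is chr11:44399813-44400062 and the Ebi3 window is chr17:55952373-55952622, both on the + strand.
Il12b: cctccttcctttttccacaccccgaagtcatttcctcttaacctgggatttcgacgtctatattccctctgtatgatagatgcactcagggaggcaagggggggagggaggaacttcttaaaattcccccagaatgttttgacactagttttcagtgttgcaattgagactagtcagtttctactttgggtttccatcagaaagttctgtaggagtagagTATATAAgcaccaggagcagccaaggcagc
Ebi3: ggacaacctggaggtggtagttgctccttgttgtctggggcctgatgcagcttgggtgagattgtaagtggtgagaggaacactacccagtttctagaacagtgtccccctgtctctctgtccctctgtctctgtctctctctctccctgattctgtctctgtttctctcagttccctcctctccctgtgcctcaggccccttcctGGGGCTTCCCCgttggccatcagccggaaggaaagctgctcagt
The Il12b window held 1 match, to the TATA letters, from base 30 to base 24 before the start. The Ebi3 window held 2 overlapping matches to the NF-κB letters, which lie between base 44 and base 34 before the start. The NF-κB motif was searched as GGG followed after 5 bases by CC, and 45.8% of 32851 promoter windows of the same length held it. The TATA box was searched as TATANAA, which 10.4% of these windows held. For C/EBP the letters were TTGCNNAA, found in 9.56% of the windows. For AP-1 they were TGANTCA, found in 6.75% of the windows. The IRF motif was 2 copies of GAAA with 2 bases between them, and 2.98% of the windows held it. A match is a description of the letters only. Sites with other letters are missed by this search, so a window without a match to a motif can still hold a site for that factor.

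BMDMs were grown with M-CSF from WT littermates (Zmynd8 fl/fl) and from Zmynd8 cKO mice, in which Lyz2-Cre deletes loxP-flanked exons of Zmynd8 in myeloid cells. The RNA of 3 biological replicates was mixed for each library, and the age of the mice is not given in the sources used here. The WT and cKO cells were non-treated (NT, labelled M0), treated with LPS at 100 ng/ml for 6 h (M1) or treated with IL-4 at 20 ng/ml for 6 h (M2). The Raw264.7 libraries came from a Zmynd8 knockout (KO) made with a lentiviral guide, alone or with Zmynd8 put back as the WT or as the D/E-A mutant, and from a p65 (Rela) KO after LPS, alone or with WT p65 or the K122R mutant put back. Whether a KO line was 1 clone, and the LPS dose and time in Raw264.7 cells, are not given in the sources used here. The study's text gives LPS for the WT Zmynd8 and D/E-A libraries, and no source used here states the treatment of the Zmynd8 KO library.

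Total counts ranged from 22597425 to 28386646 in the BMDM libraries and from 15127110 to 21042628 in the Raw264.7 libraries. Gene-level counts do not separate the floxed exons, so Zmynd8 reads are no check of the cKO label. Zmynd8 was 81.5 CPM (counts scaled to a common library total) in the NT cKO library against 87.1 in WT. It was 86.8 in cKO against 79.0 in WT after LPS, and 151 against 128 after IL-4. Lyz2, the locus that carries Cre, was lower in each cKO library (7202 against 10950 CPM in NT, 2892 against 6902 with LPS, 5245 against 8941 with IL-4). In Raw264.7 cells, Zmynd8 was 5.75 CPM in the KO against 26.4 with WT Zmynd8 and 27.7 with D/E-A. Rela was 50.6 CPM in the p65 KO, 102 with WT p65 and 351 with K122R. The column used for WT p65 is headed as WT with LPS and does not itself name the p65 KO.

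The libraries labelled Raw264.7 fell into 2 sets that differed in sex-linked and lineage genes. The 3 Zmynd8 lines held 7109 to 8467 Xist reads and 0 or 1 Ddx3y read where that Y-linked gene is listed, and the 3 p65 lines held 0 to 3 Xist reads and 400 to 1810 Ddx3y reads. The summed level of 6 neutrophil genes was 3783 to 9256 CPM in the Zmynd8 lines and at most 0.264 in the p65 lines, where only 2 of the 6 are listed. Reads of the ribosomal gene Rn18s-rs5 made up 6.50% to 13.7% of the Zmynd8 libraries and 0.179% to 0.509% of the p65 libraries. The summed level of 4 B-cell genes was 102 to 147 CPM in the Zmynd8 lines and 5.42 to 8.17 in the p65 lines. All 6 macrophage markers (Adgre1, Cd68, Csf1r, Itgam, Mertk and Fcgr1) were detected in both sets, although Mertk was at most 0.255 CPM in the p65 lines. Raw264.7 is known as a line from a male mouse, so the Xist and Ddx3y reads of the 3 Zmynd8 lines go against their label, and these are called below the libraries labelled Raw264.7 or the Zmynd8 lines. In BMDMs, the 5 of the 6 macrophage markers that stand under a single identifier, all but Itgam, summed to 5654 to 8700 CPM. Neutrophil genes summed to 2.14 to 3.85 CPM in the NT and LPS BMDM libraries but to 286 and 402 in the WT and cKO IL-4 libraries. In bulk RNA, fewer cells of a type and less RNA per cell cannot be told apart.

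In NT BMDMs, Ebi3 was the only member with more than 29 reads. It had 770 counts in WT and 779 in cKO, or 29.4 and 34.5 CPM. Il27 had 29 and 18 counts, Il12b 0 and 1, Il23a 1 and 0, and Il12a 0 in both libraries, where a count of 0 allows up to 0.133 CPM. Neither of the 2 members with enough counts to test (a mean of at least 10) was called between genotypes, in a comparison where 48% of all genes were called (21.9% higher and 26.1% lower). A call needed an adjusted p under 0.05 in a two-sided exact binomial test of the reads in the 2 libraries and a 1.2-fold change on log2(CPM + 1). The ratio of cKO to WT was 0.720 for Il27 (95% limits 0.377 to 1.34) and 1.17 for Ebi3 (1.06 to 1.3). On the deposited TPM scale Ebi3 had the other order in NT, at 44.26 in cKO and 45.22 in WT.

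LPS raised Il12b, Il27 and Ebi3 in both genotypes. In WT BMDMs, Il12b went from 0 to 216 counts (8.67 CPM), which is at least 75.8-fold against a floor of 3 counts in NT, with a 95% lower limit of 61.1 once the counting error of both libraries is included. Il27 went from 29 to 2208 counts, an 80.1-fold ratio of CPM (55.6 to 120). Ebi3, which already had reads before LPS, went from 770 to 4965 counts, a 6.79-fold ratio (6.29 to 7.33). All 3 tested members were thus called higher, where 82% of all genes were called (20.7% higher and 61.3% lower).

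In cKO BMDMs, Il12b went from 1 to 647 counts with LPS, a ratio of 624 whose limits of 112 to 24684 rest on the single NT read. Il27 went from 18 to 1587 counts, an 85.0-fold ratio (53.6 to 144), and Ebi3 from 779 to 3947, a 4.89-fold ratio (4.52 to 5.28). All 3 tested members were again called higher, where 82.9% of all genes were called (23.9% higher and 59% lower). Over all genes, the median change on the log2 scale between LPS and NT was −0.58 in WT and −0.55 in cKO, so the members rose while the typical gene fell on this scale. With TMM scaling the medians were −0.02 and −0.03, the share of higher among called genes went from 25.2% to 49.6% in WT and from 28.8% to 49.4% in cKO, and the 3 members stayed called higher with log2 fold changes of 2.86 to 5.92.

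Il12a and Il23a, the chains that make IL-12 and IL-23 specific, stayed near the limit of detection in every BMDM library. After LPS, Il12a had 6 counts in WT and 10 in cKO, and Il23a had 7 and 2. With IL-4, Il12a had 3 counts in WT and 14 in cKO, and Il23a had 0 and 5. Both genes had a mean below 10 counts in all 7 BMDM comparisons, so neither was tested there. The cKO to WT ratio after LPS had limits of 0.583 to 5.93 for Il12a and 0.0308 to 1.59 for Il23a, which include no change. After IL-4 the ratio for Il12a was 5.07 with limits of 1.42 to 27.5, which do not include no change, and Il12a was called higher there when the filter on low counts was dropped.

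**Figure D1:**
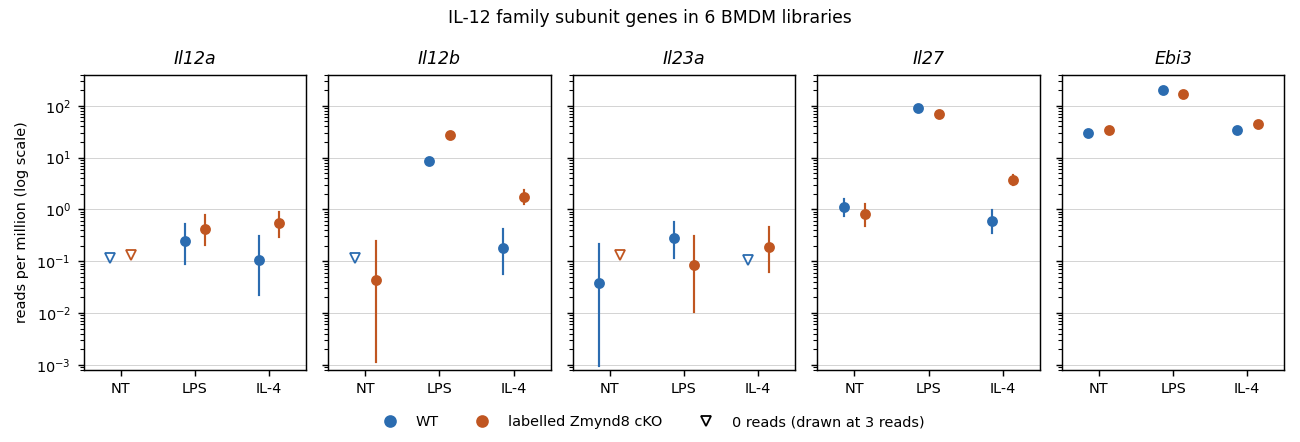
CPM (log axis) of the 5 genes in the 6 BMDM libraries, WT in blue and Zmynd8 cKO in orange, with 1 library per point, bars for 95% Poisson limits of the count and open triangles for libraries with 0 reads, drawn at the level of 3 reads. Il12b was higher in cKO than in WT after LPS (27.6 against 8.67) and IL-4 (1.76 against 0.176), while Il27 was lower in cKO after LPS (67.7 against 88.7) and higher after IL-4 (3.71 against 0.599).

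Between genotypes after LPS, Il12b and the IL-27 genes lay on opposite sides. Il12b had 27.6 CPM in cKO and 8.67 in WT, a ratio of 3.18 (2.72 to 3.73), and its log2 fold change of 1.56 exceeded that of 99.9% of the genes tested. Il27 had 67.7 CPM in cKO and 88.7 in WT, a ratio of 0.764 (0.716 to 0.815). The call of Il27 was lost in the exact test of edgeR with an assumed coefficient of variation of 0.2 (adjusted p = 1) and at a 2-fold threshold. Ebi3 had 168 and 199, a ratio of 0.845 (0.810 to 0.881), and was not called because its change was below 1.2-fold. Of the 3 members tested, 1 was called higher and 1 lower, where 26.2% of all genes were called (17.3% higher and 8.9% lower). The deposited TPM values, which are per gene length, had the same order, with 24.22 against 7.17 for Il12b, 125.85 against 155.32 for Il27 and 261.18 against 291.45 for Ebi3. With median-ratio or TMM scaling Ebi3 was also called lower, at a log2 fold change of −0.30 and −0.28, and the share of higher among called genes went from 66.1% to 52.8% and 56.0%.

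Of 4 tested dendritic cell genes, 2 were called higher in the cKO library after LPS, Ccr7 and Clec9a, where 17.3% of all genes were called higher. The summed level was 21.0 CPM in cKO and 15.8 in WT over 7 genes, of which Flt3 and Cd209a were at 0 in both libraries and Zbtb46 was 0.341 and 0.522. Neutrophil genes summed to 2.35 and 3.85 CPM. In NT the 7 dendritic cell genes had summed to 0.841 CPM in cKO and 1.72 in WT. Against NT, all 3 tested were called higher with LPS in each genotype, where 23.9% of all genes in cKO and 20.7% in WT were. The part of dendritic cells and neutrophils in the LPS rise of the members and in the Il12b difference was not tested.

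No member was called higher with IL-4 in WT cells. Il12b had 5 counts, Il27 17 and Ebi3 951 in the WT IL-4 library, and neither of the 2 members tested against NT was called, where 60.6% of all genes were (38.8% higher and 21.8% lower). The ratio of IL-4 to NT was 0.541 for Il27 (0.279 to 1.02) and 1.14 for Ebi3 (1.04 to 1.26). The IL-4 libraries come from a table with other gene lengths than the NT and LPS tables. CPM is not divided by gene length, but any difference in counting between these tables would enter levels set across them. With median-ratio or TMM scaling Il27 was called lower in WT, and the share of higher among called genes went from 64.1% to 49.5% and 50.1%.

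In the cKO IL-4 library all 3 tested members were called higher than in the cKO NT library, where 67.3% of all genes were called (42.4% higher and 24.9% lower). Il12b had 46 counts against 1 (ratio 39.8, limits 6.79 to 1605). Il27 had 97 against 18 (ratio 4.66, limits 2.80 to 8.19), and Ebi3 1164 against 779 (ratio 1.29, limits 1.18 to 1.42). The median log2 fold change of all genes was 0.17, and the call of Ebi3 was lost with either alternative scaling (0.17 on both), under which 50.3% and 50.4% of the called genes were higher in place of 63%.

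Between genotypes after IL-4, within 1 table, all 3 tested members were higher in cKO. Il12b had 46 counts against 5 in WT, a ratio of 10.0 (3.99 to 32.2), and Il27 had 97 against 17, a ratio of 6.20 (3.68 to 11.1). The log2 fold changes of 1.23 and 1.56 exceeded those of 99.1% and 99.6% of genes, while Ebi3 at 0.40 (ratio 1.33, 1.22 to 1.45) exceeded that of 89.9%. In this comparison 24.5% of all genes were called (14% higher and 10.6% lower). These Il12b and Il27 levels in the cKO IL-4 library were 6.38% and 5.48% of the levels in the cKO LPS library.

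Other genes that LPS induces were called higher in the same cKO IL-4 library, where 14% of all genes were. Tnf was 129 CPM in cKO and 38.7 in WT, Il6 2.14 and 0.211, and Nos2 7.16 and 1.23, and all 3 were called higher. After LPS, Tnf (267 and 169 CPM) and Il6 (21.3 and 13.3 CPM) were called higher in cKO and Nos2 (7391 and 7472 CPM) was not called. Of 3 genes that IL-4 induces, Arg1 (1541 and 1500 CPM) had an adjusted p of 0.000598 in the exact binomial test but did not reach 1.2-fold, Chil3 was called higher in cKO (399 and 296 CPM) and Retnla was called lower (0.191 and 2.99 CPM). Neutrophil genes summed to 402 CPM in cKO and 286 in WT, with 4 of 5 tested called higher, and dendritic cell genes to 6.35 and 5.85. Their part in the Il12b and Il27 values was not tested.

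**Figure D2:**
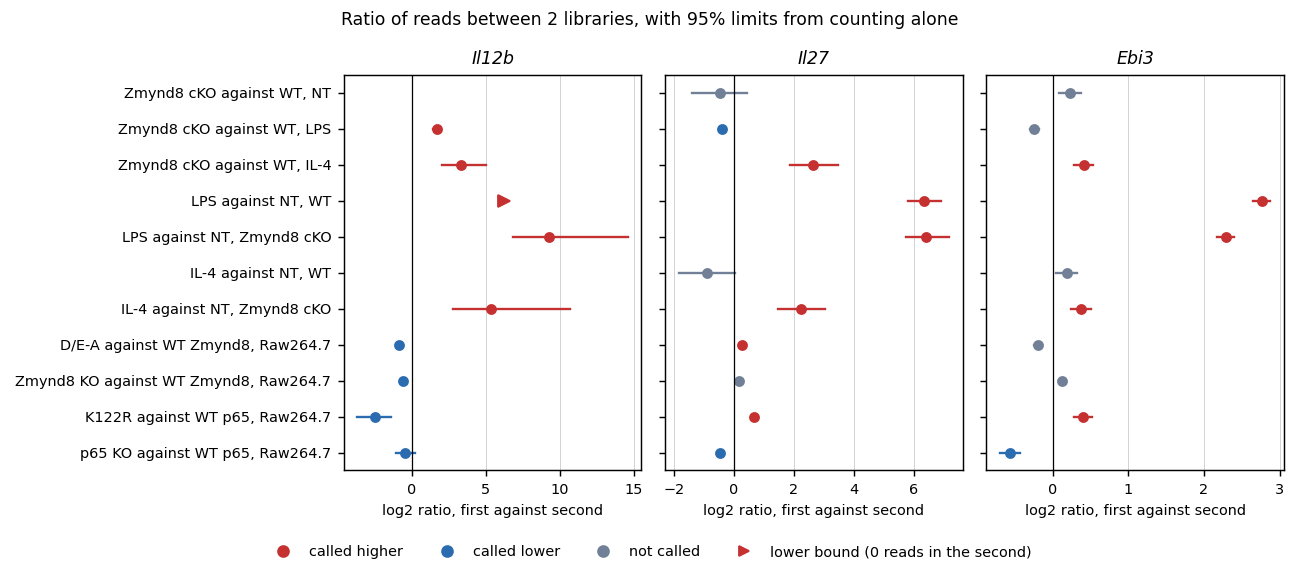
Log2 ratio of reads between the 2 libraries of each comparison for Il12b, Il27 and Ebi3, with 95% limits from counting alone, red for called higher, blue for called lower and grey for not called, and a triangle for a lower bound where the second library had 0 reads. Il12b was above 0 in the 5 BMDM comparisons drawn and below 0 in the 4 comparisons of libraries labelled Raw264.7, where the p65 KO limits include 0; comparisons that share a library are not independent.

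The mRNAs of the 2 chains of a cytokine differed in level in most libraries where both could be read. Per kb of exon, Ebi3 exceeded Il27 by 23.5-fold in WT NT (16.2 to 35.3) and 38.3-fold in cKO NT (24.1 to 65). After LPS the Ebi3 to Il27 ratio was 1.99 in WT (1.89 to 2.09) and 2.20 in cKO (2.08 to 2.33). With IL-4 it was 49.5 in WT (30.7 to 85.3) and 10.6 in cKO (8.63 to 13.2). Il12b exceeded Il12a by 25.1-fold in WT LPS (11.3 to 69.1) and 45.1-fold in cKO LPS (24.3 to 94.4), limits that overlap. With IL-4 the Il12b to Il12a ratio was 1.16 in WT (0.226 to 7.48) and 2.29 in cKO (1.24 to 4.51). In the p65 lines, the Il12b to Il23a ratio was 0.856 with WT p65 (0.559 to 1.32) and 0.775 in the p65 KO (0.472 to 1.28), limits that include equal levels, and 0.0604 with K122R (0.0269 to 0.119). In the Zmynd8 lines it was 242 with WT Zmynd8 (123 to 561) and 94.3 in the Zmynd8 KO (57.0 to 169). There the Ebi3 to Il27 ratio was 1.32 with WT Zmynd8 (1.27 to 1.37), 1.28 in the Zmynd8 KO (1.23 to 1.32) and 0.952 with D/E-A (0.916 to 0.990). In BMDMs, Il27 exceeded Il12b by 19.7-fold per kb in WT LPS (17.1 to 22.8) and by 4.73-fold in cKO LPS (4.31 to 5.19), limits that do not overlap. These ratios use GENCODE M21 exon lengths, and the deposited TPM rests on the authors' own lengths, by which Il12b and Il12a had 7.17 and 0.37 TPM in WT LPS and 24.22 and 0.59 in cKO LPS.

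**Figure D3:**
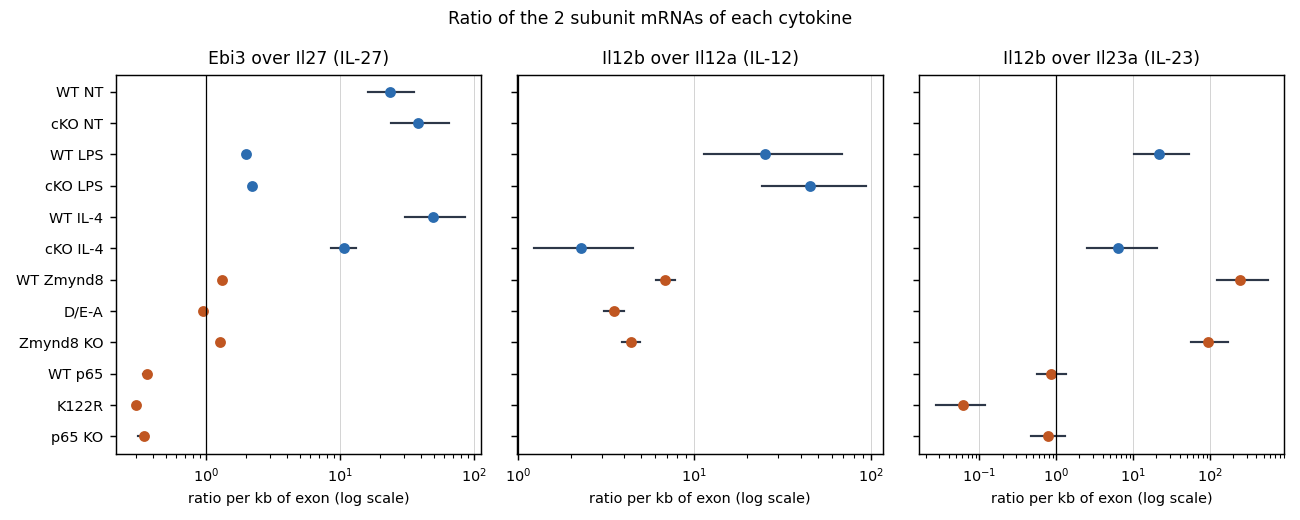
Ratio of the mRNAs of the 2 chains of IL-27, IL-12 and IL-23 per kb of exon (log axis) in each library, BMDMs in blue and libraries labelled Raw264.7 in orange, with 95% limits, for libraries with more than 3 reads of both genes. Ebi3 exceeded Il27 in all 6 BMDM libraries, from 1.99-fold in WT LPS to 49.5-fold in WT IL-4, and lay below it in the 3 p65 lines (0.301 to 0.365).

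Receptors and signal transducers of the family were read from lists of genes. Il12rb1, the receptor chain shared by IL-12 and IL-23, was 1.34 CPM in WT NT and 189 after LPS, and Il23r, the IL-23-specific chain, had no reads in WT NT and 7.23 after LPS. In WT after LPS, 3 of 5 tested receptor genes were called higher and 1 lower, which was Il6st (gp130, used by IL-27) at 205 and 51.6 CPM, so 4 of 5 were called where 82% of all genes were. The signal transducers Jak2, Tyk2, Stat3 and Stat4 were called higher with LPS in WT, and Jak1 had a log2 fold change of 0.23. The list median was 0.30 for receptors, beside −0.58 for all genes. In cKO the receptors had 3 called higher and 2 lower, where 82.9% of all genes were called, and Jak1, Jak2, Tyk2, Stat3 and Stat4 were all called higher.

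Between genotypes after LPS none of the 5 tested receptors was called, where 26.2% of all genes were, and the transducers Jak2 (log2 fold change 0.34) and Stat4 (0.64) were called higher in cKO. Of 11 factors known to act on these genes, 4 were called higher in cKO, which were Rel (0.45), Nfkb1 (0.50), Nfkbiz (0.51) and Cebpb (0.44). The 3 called lower were Irf8 (−0.32), Spi1 (−0.44) and Batf (−0.35), and the list median was 0.04 beside 0.03 for all genes. The background shares were 17.3% called higher and 8.9% called lower. Of 7 known inhibitors, Il10 was called lower (44.2 against 62.4 CPM in WT) and Maf higher, with a list median of −0.18. Among receptors, 1 of 4 tested was called higher and 2 lower in cKO in NT, and 2 of 4 were called lower after IL-4. Il6st was among the lower in both, at 106 against 205 CPM in NT and 166 against 248 after IL-4. In NT, where 48% of all genes were called, Jak1, Jak2 (22.7 against 42.4 CPM), Tyk2 and Stat3 were called lower in cKO and Stat4 higher, while after IL-4 Jak2 was called higher. After IL-4 the factors Nfkbiz (37.7 against 13.3 CPM) and Batf (9.95 against 3.66) were the 2 of 11 called, both higher in cKO, where 24.5% of all genes were called. Of the 7 inhibitors, 3 were called higher in cKO and 2 lower after IL-4, and 1 higher and 2 lower in NT. After IL-4, Maf was 160 CPM in cKO against 84.2 in WT, and Nfil3 was 33.1 against 52.3. The difference between these treatments was not tested.

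Across the 6 BMDM libraries the genes with the most similar profile to each tested member were sought among 13075 genes, as the smallest root mean square difference of centred log2(CPM + 1). For Il12b these were Il6 (0.28), Il1a (0.31), Fpr3 (0.35), Gbp2b (0.37) and Ccnd2 (0.40). For Il27 they were Cst7 (0.28), Lipg (0.32), Gbp10 (0.33), Hcar2 (0.35) and Lhx2 (0.39). For Ebi3 they were Tspo (0.09), Casp1 (0.11), Gadd45b (0.12), Slc6a4 (0.12) and Gys1 (0.13). The members were not each other's nearest genes, since Il27 ranked 259 and Ebi3 ranked 204 in likeness to Il12b. The measure depends on the size of the LPS rise as well as its pattern, and with 6 libraries it is a description only.

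In the Zmynd8 lines Il12b, Il27 and Ebi3 were all abundant and Il12a was readily detected. With WT Zmynd8 the recovered reads were 6325 for Ebi3, 4239 for Il27, 2800 for Il12b, 285 for Il12a and 8 for Il23a. With D/E-A they were 5290, 4915, 1448 and 288 in that order, and Il23a is not listed in that table, where the lowest WT Zmynd8 entry holds 21 reads. The Zmynd8 KO held 7515, 5212, 2046, 327 and 15 reads. The values of these tables are counts divided by a factor per library, and a call in Raw264.7 lines meant a 1.2-fold change on log2(value + 1) alone, with no test.

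Il12b was lower with D/E-A than with WT Zmynd8. Its deposited values were 1482 and 2736, a log2 fold change of −0.88 (ratio 0.542, limits 0.508 to 0.577). Il27 was higher, at 5031 and 4142 (log2 fold change 0.28, ratio 1.21), and this call was lost with scaling by library totals (0.25). Ebi3 at −0.19 and Il12a at 0.08 did not reach 1.2-fold. Thus 1 of 4 listed members was called higher and 1 lower, where 72.6% of all genes were called (36.7% higher and 35.9% lower).

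Il12b was also lower in the Zmynd8 KO than in the same WT Zmynd8 library, at 1962 and 2920 (log2 fold change −0.57, ratio 0.672, limits 0.634 to 0.712). Il23a passed the fold with 15 reads against 8, but its limits of 0.686 to 4.70 include no change. Il27 (0.18), Ebi3 (0.13) and Il12a (0.08) did not pass, and 70.3% of all genes did (33.8% higher and 36.5% lower). The D/E-A and KO comparisons share the WT Zmynd8 library, so the lower Il12b values in both are not independent of each other. Neutrophil genes also differed between these lines, with summed levels of 9256 CPM with WT Zmynd8, 6151 in the KO and 3783 with D/E-A, beside Il12b levels of 152, 97.2 and 80.8. Reads of Rn18s-rs5 made up 13.7%, 11.1% and 6.50% of these libraries in that order. Dendritic cell genes summed to 176, 151 and 102 CPM in that order, and macrophage markers ran the other way at 2184, 2943 and 3690. Most of the dendritic cell sum was Ccr7. On the deposited scale it was 2632 of 3379 with WT Zmynd8 and 2173 of 3051 in the KO. By 1.2-fold, 3 of the 7 dendritic cell genes were higher and 2 lower in the KO (median log2 fold change 0.06). With D/E-A, 1 of 6 was higher and 5 were lower (median −0.57). The part of these cell-type genes and of Rn18s-rs5 in the Il12b values was not tested.

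**Figure D4:**
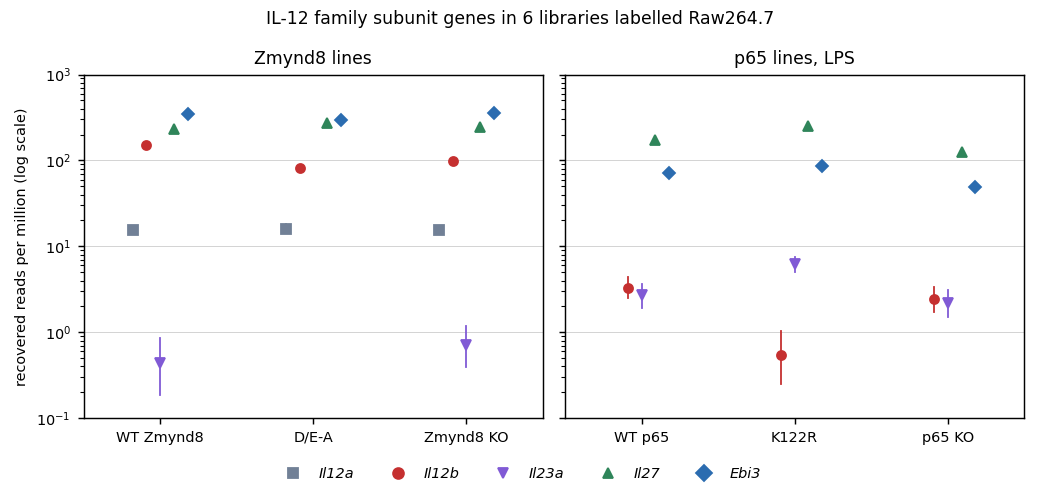
Recovered CPM (log axis) of the 5 genes in the 6 libraries labelled Raw264.7, with 1 library per point and bars for 95% Poisson limits, where Il23a is not listed for D/E-A nor Il12a for the p65 lines. Il12b lay between 80.8 and 152 CPM in the Zmynd8 lines and between 0.540 and 3.32 in the p65 lines.

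The p65 lines had another profile, with little Il12b and no listed Il12a. With WT p65 the recovered reads were 2728 for Il27, 1124 for Ebi3, 52 for Il12b and 42 for Il23a. K122R held 4212, 1431, 9 and 103 reads in that order, and the p65 KO held 1911, 737, 37 and 33. Il12a is not listed in these tables, which list no gene at 0 in both libraries. Il23a was thus 2.18 to 6.18 CPM here and at most 0.713 in the Zmynd8 lines where listed, and Il12b was the reverse. These 2 sets of lines also differed in Xist and Ddx3y as given above, and the difference between the sets was not tested.

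With K122R in place of WT p65, Il12b was lower and the other 3 listed members were higher. Il12b had a deposited value of 9.17 against 51.0 (log2 fold change −2.35, ratio 0.180, limits 0.0779 to 0.368), below that of 98.5% of genes. Il23a had 105 against 41.2 (ratio 2.55, 1.76 to 3.74), Il27 had 4294 against 2676 (ratio 1.60, 1.53 to 1.68) and Ebi3 had 1459 against 1103 (ratio 1.32, 1.22 to 1.43). In this comparison 63.3% of all genes passed the fold, 30.8% higher and 32.5% lower. With scaling by library totals the share of higher among called genes was 33.7% in place of 48.6%, the median of all genes moved from 0.01 to −0.17, and Ebi3 was no longer called (0.26). Tnf, Il6 and Nos2 were also higher with K122R (log2 fold changes 0.43, 0.74 and 1.56), and so was Rela itself. Zmynd8 was lower with K122R, at 64.2 CPM against 117 with WT p65 (log2 fold change −0.72). The part of the Rela and Zmynd8 levels was not tested.

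In the p65 KO all 4 listed members were lower than with WT p65. Il27 had 1944 against 2682 (log2 fold change −0.46, ratio 0.725, limits 0.683 to 0.769) and Ebi3 had 750 against 1105 (−0.56, ratio 0.678, 0.617 to 0.745). Il12b (−0.43) and Il23a (−0.29) had limits of 0.470 to 1.14 and 0.499 to 1.31, which include no change. In this comparison 51.9% of all genes passed the fold, 26.3% higher and 25.7% lower. Of the 3 LPS-induced genes, Il6 was lower too (log2 fold change −1.10), while Tnf (−0.15) and Nos2 (0.22) did not pass the fold. Of 6 tested inhibitors 4 were higher by 1.2-fold in the p65 KO and 3 with K122R. Il10 was among them in both (log2 fold changes 1.49 and 1.38), and its part in the Il12b values was not tested. The K122R and p65 KO comparisons share the WT p65 library. Il27 CPM were 174 with WT p65, 253 with K122R and 126 in the p65 KO, and Ebi3 CPM were 71.8, 85.9 and 48.7.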

How the data were processed

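The BMDM libraries were made from polyadenylated RNA, and their reads were aligned by the authors to the mm10 transcriptome with TopHat. How the Raw264.7 libraries were made is not given in the sources used here. The counting tool is not given in the sources used here. The deposited BMDM tables hold estimated counts and TPM per gene, the latter divided by gene length by the authors, and the counts were rounded to whole numbers. Entries without a gene name (2 to 431 per table) held 0 counts. The deposited Raw264.7 tables hold a signal, which is read counts divided by a factor for each library and table. Whole reads were recovered from it, within 0.01 reads for 99.996% to 100% of the values. WT Zmynd8 and WT p65 stand in 2 tables each, and their reads were the same for 12769 of 12771 and 21494 of 21494 shared genes. The 2 unlabelled sample columns and the authors' own fold changes and p-values were not used.

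BMDM reads were compared between 2 libraries at a time with a two-sided exact binomial test against library totals (scipy 1.17.1), Benjamini-Hochberg adjusted over genes averaging 10 counts or more. A call needed an adjusted p under 0.05 and a 1.2-fold change on log2(CPM + 1). Such a test compares libraries, not conditions. Raw264.7 values were compared within a table by fold on log2(value + 1) at a mean value of at least 1. Ratios carry 95% Clopper-Pearson limits. Alternatives were pseudocount 0.1, no or another low filter, median-ratio, TMM or library-total scaling, a 2-fold threshold, the exact test of edgeR 4.0.16 with an assumed coefficient of variation of 0.2, and the exact binomial test on recovered reads. Named genes were the members, lists of pathway and marker genes, and the 5 nearest profiles of each member averaging at least 10 counts. The members and lists were chosen with earlier results of these data known. Among the signal transducers, 1 listed gene is not reported here.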

Additional observations from a re-analysis of the deposited data

Results flagged for a closer look

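Il12b differed in direction between the settings in which Zmynd8 was removed. Its log2 fold change was 1.56 for cKO against WT BMDMs after LPS and 1.23 after IL-4, and −0.57 for Zmynd8 KO against WT Zmynd8 in the libraries labelled Raw264.7. The Xist and Ddx3y reads of these 2 libraries go against that label, and their neutrophil genes summed to 6151 CPM in the KO against 9256, whose part in the difference was not tested. With 1 library per group the difference between these contrasts was not tested, and the treatment of the Zmynd8 KO library is not stated.

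Il27 took opposite directions between cKO and WT BMDMs after LPS, at −0.38, and after IL-4, at 1.56 on the log2 scale. This difference was not tested either, and the call after LPS was lost in the exact test of edgeR with an assumed coefficient of variation of 0.2 (adjusted p = 1) and at a 2-fold threshold, while the call after IL-4 was kept in both.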

How the results depend on the processing

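No log2 fold change reported for a member changed direction under the alternatives run here, although the deposited TPM of Ebi3 had the other order between genotypes in NT. With a 2-fold threshold the members called fell to 1 for cKO against WT with LPS, to 2 for K122R, and to 0 for D/E-A, Zmynd8 KO and p65 KO, and it lost Ebi3 for cKO against WT with IL-4 and for IL-4 against NT in cKO, leaving 2 members in each. The exact test of edgeR at a coefficient of variation of 0.2 called 1 member for cKO against WT with LPS, which was Il12b (adjusted p = 0.0436), and Il27 was lost there (adjusted p = 1). Il12b and Il27 stayed called between genotypes after IL-4 in that test (adjusted p = 0.00160 and 0.000597), and Ebi3 was lost there (adjusted p = 1) and for IL-4 against NT in cKO (adjusted p = 0.600). Median-ratio and TMM scaling each called 1 member for IL-4 against NT in WT (Il27, lower), where none was called before. Scaling by library totals left 1 member for D/E-A. The exact binomial test on recovered reads left 1 member for Zmynd8 KO (Il12b) and 2 for p65 KO (Il27 and Ebi3). The cause of these changes was not tested, beyond the stricter thresholds themselves. Over all genes, the main rules called 3246 to 10510 genes in BMDM comparisons and 9271 to 14978 in Raw264.7 comparisons. These ranges became 112 to 5825 and 2345 to 5460 at 2-fold, 37 to 6916 with edgeR, 2712 to 7910 with the binomial test on recovered reads, and 6514 to 10818 at a mean value of at least 5. Without the low filter 4 members in place of 3 were called for LPS and IL-4 against NT in cKO, LPS against NT in WT, and cKO against WT with IL-4, the addition being Il12a. No paired analysis was possible because each condition had 1 library. Depth limits Il12a and Il23a in BMDMs, whose counts of 0 to 14 cannot show moderate differences.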
